A study of Mus musculus with 2 samples.

Results

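Polycomb repressive complex 2 (PRC2) was described here through 10 genes, 6 for core subunits (Ezh1, Ezh2, Eed, Suz12, Rbbp4 and Rbbp7) and 4 for accessory subunits (Jarid2, Mtf2, Phf1 and Phf19). They were chosen by symbol, matched through the Ensembl identifiers of the table, and all 10 of them were found among its 19202 genes. RNA sequencing measured telencephalic tissue of C57BL/6 mouse embryos at embryonic day 12 in 2 genotypes, a conditional knockout of H2A.Z (H2AZcKO) and its floxed control (H2AZfl/fl), whose H2A.Z allele can be deleted by Cre. Mouse H2A.Z, a histone H2A variant, is encoded by H2afz and H2afv. The tissue label reads telencephalic while the extraction protocol names cerebral cortex, and the Cre driver was not given in the sources used here. Each genotype has 1 column of read counts, a library below, and these sum to 8839840 counts in H2AZcKO and 8891198 in H2AZfl/fl. The series text speaks of triplicates, and whether a column pools them was not given in the sources used here. No difference below therefore has a replicate check, and no test of the genotype was run.

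PRC2 methylates lysine 27 of histone H3 (H3K27), a mark of silenced genes. Its core holds a methyltransferase (EZH1 or EZH2), the scaffold SUZ12, EED, which binds the methylated histone and stimulates the enzyme, and a histone-binding chaperone (RBBP4 or RBBP7). Accessory subunits define alternative forms of the complex, one with a Polycomb-like protein (MTF2, PHF1 or PHF19) and one with JARID2 and AEBP2. In mouse cortical progenitors Ezh2 is known to govern the balance between self-renewal and differentiation, and in mouse embryonic stem cells H2A.Z and PRC2 have been found at many of the same developmental promoters.

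The promoters of 4 members are shown because they differ in a motif of the E2F factors, which are regulators of the cell cycle. EZH2 and EED are known targets of E2F factors in cultured cells. Binding of E2F factors was not measured here. Each sequence runs from 250 bases before to 50 bases after the annotated start (RefSeq, GRCm38.p6), written 5′ to 3′ on the gene's strand. Capitals mark an E2F-type motif, searched as TTTCCCGC, TTTGGCGC, TTTCGCGC or TTTGCCGC on both strands. Where 1 of these occurs on the opposite strand its reverse complement is in capitals, as in Phf19.
Ezh2, chr6:47594981-47595280, minus strand: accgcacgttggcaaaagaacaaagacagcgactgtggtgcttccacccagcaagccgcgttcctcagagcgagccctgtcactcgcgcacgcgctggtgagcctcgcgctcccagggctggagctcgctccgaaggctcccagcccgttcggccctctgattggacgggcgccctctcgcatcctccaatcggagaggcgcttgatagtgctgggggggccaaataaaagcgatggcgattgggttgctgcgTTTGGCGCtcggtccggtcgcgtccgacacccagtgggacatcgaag
Suz12, chr11:79992856-79993155, plus strand: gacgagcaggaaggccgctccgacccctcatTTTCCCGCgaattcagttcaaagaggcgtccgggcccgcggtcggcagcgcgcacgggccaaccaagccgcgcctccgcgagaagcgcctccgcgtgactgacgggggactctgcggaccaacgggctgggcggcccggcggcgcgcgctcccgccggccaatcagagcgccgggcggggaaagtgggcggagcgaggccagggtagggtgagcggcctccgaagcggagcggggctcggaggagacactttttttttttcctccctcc
Phf19, chr2:34913927-34914226, minus strand: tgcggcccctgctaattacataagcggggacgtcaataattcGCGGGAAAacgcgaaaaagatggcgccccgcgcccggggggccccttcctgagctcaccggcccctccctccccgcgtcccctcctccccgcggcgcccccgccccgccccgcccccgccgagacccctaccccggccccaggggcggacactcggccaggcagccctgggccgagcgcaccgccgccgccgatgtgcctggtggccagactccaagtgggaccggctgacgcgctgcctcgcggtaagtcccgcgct
Ezh1, chr11:101226414-101226713, minus strand: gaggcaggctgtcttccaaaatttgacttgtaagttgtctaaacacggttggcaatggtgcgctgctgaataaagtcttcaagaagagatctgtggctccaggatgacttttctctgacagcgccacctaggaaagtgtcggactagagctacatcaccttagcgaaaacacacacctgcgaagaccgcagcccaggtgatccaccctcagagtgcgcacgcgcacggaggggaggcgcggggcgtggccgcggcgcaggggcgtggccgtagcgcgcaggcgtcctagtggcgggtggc
All 10 members had a promoter entry, 12 entries in all. The motif occurred in 3 of the 12, those of Ezh2, Suz12 and Phf19, against 744 of 32851 promoters of the same length (2.26%). It began 4 bases into the transcript in Ezh2, at -219 in Suz12 and at -208 in Phf19. The promoters of Ezh1, Eed, Rbbp4, Rbbp7, Jarid2, Mtf2 and Phf1 did not hold these letters in this window. The members' entries held between 2 and 41 CpG dinucleotides with a median of 27, against a median of 7.0 over all promoters. Each motif searched itself holds a CpG, and the motif's share among promoters of like CpG content was not measured, so 2.26% is not a matched background. The entry with 2 was the downstream start of Mtf2, whose upstream start held 30.

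The members form pairs of related genes, so the counts of each pair are only as separate as their sequences. The coding sequences of Ezh1 and Ezh2 were identical at 67.3% of 2171 aligned bases, and those of Rbbp4 and Rbbp7 at 78.2% of 1272. The longest identical stretch of each pair's coding sequences is shown because such stretches bear on whether a short read can match both genes.
Ezh1 and Ezh2: aagtatgtgggcatcga
Rbbp4 and Rbbp7: aaccatgaaggagaagtgaa
These runs are 17 and 20 bases long (coding sequences of GENCODE M21 transcripts), and stretches with mismatches were not searched. No window of 50 bases was shared within either pair. Rbbp7 shared 206 of its 2195 windows with another gene, Gm6382, whose counts are not analysed here, and Rbbp4 shared 38 of 4358 with other genes, while Ezh1, Ezh2, Eed, Suz12, Jarid2, Phf1 and Phf19 shared none. Several members overlap exons of a neighbour on the opposite strand. Phf1 overlaps Cuta over 1370 bases, Rbbp4 overlaps Gm26722 over 796 and Sync over 782, Mtf2 overlaps Tmed5 over 395 and Rbbp7 overlaps Txlng over 174. Eed, Suz12 and Ezh2 overlap such neighbours over 261, 178 and 174 bases. The strand setting of the counting was not given in the sources used here. Without it, the counts of such neighbours may include reads of each other.

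The targeted gene was lower in H2AZcKO, though its RNA remained. H2afz stood at 191 CPM in H2AZcKO and 289 CPM in H2AZfl/fl, where CPM are counts scaled to a common library size by the trimmed mean of M values (TMM), a ratio of 0.661 (0.621 to 0.703). Ratios here are H2AZcKO over H2AZfl/fl. Their ranges are exact 95% binomial (Clopper-Pearson) intervals and cover counting error alone, because each genotype has 1 library. They take each read as independent. PCR copies of 1 molecule cannot be recognised and would make them too narrow. Markers of the tissue were present in both libraries: 10 telencephalon genes summed to 2994 CPM in H2AZcKO and 2766 CPM in H2AZfl/fl. The libraries were not matched in other respects. The 8 hypothalamus and diencephalon genes summed to 32.9 and 81.2 CPM, with Nkx2-4 and Rax at 0 counts in H2AZcKO against 25 and 9, the 8 erythroid genes to 551 and 290 CPM, and the 10 microglia genes to 47.8 and 34.0 CPM. Xist had 6384 counts in H2AZcKO and 200 in H2AZfl/fl, while the Y-linked genes Kdm5d, Eif2s3y, Ddx3y and Uty had between 0 and 5 counts against 190 to 647, so sex and genotype cannot be told apart.

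PRC2 transcripts were present at close to the same level in both genotypes. Of the 10 members, 9 lay within 1.2-fold of equality, and the exception was Phf19, the least abundant. None was 1.5-fold higher or lower, where 1.92% and 3.03% of the 14586 genes with at least 1 CPM in 1 or both libraries were, and none was 2-fold higher or lower, where 0.151% and 0.48% were. At 1.2-fold 1 of 10 was higher and 0 lower, against 11.4% and 13.4% of those genes. The median log2 ratio of the members was 0.05 on the log2(CPM + 1) scale, against 0.01 over all 14586 genes. Summed, the members took 0.114% of counts in H2AZcKO and 0.111% in H2AZfl/fl, a ratio of shares of 1.02 (0.996 to 1.05). With TMM scaling the ratio of the summed members was 1.05 (1.02 to 1.08), so whether the interval holds 1 turns on the scaling. In bulk tissue fewer cells that express a gene and less of its RNA per cell cannot be told apart.

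**Figure D1:**
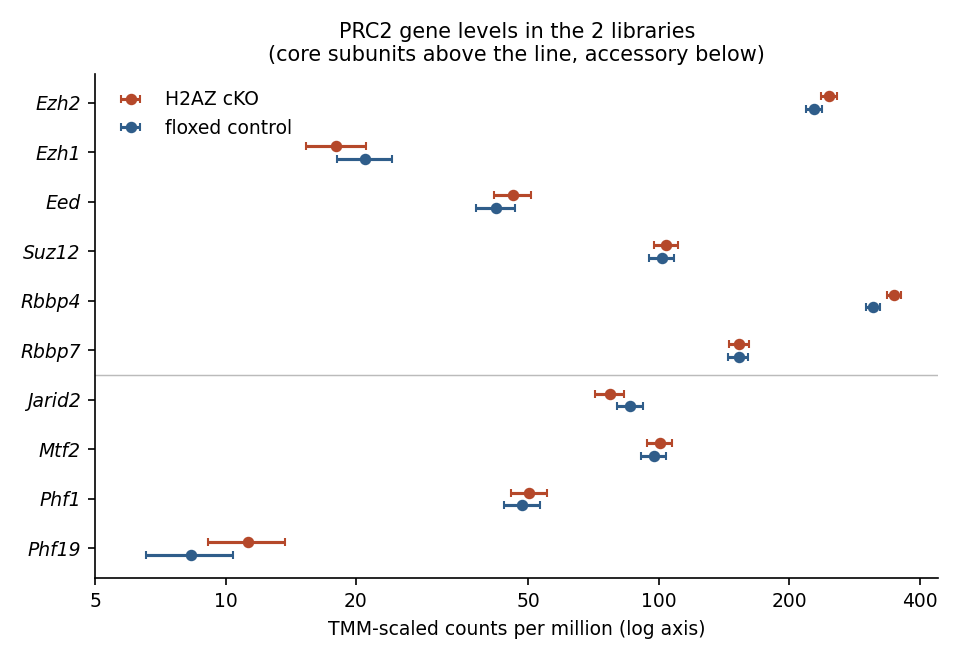
Levels of the 10 PRC2 genes in the 2 libraries, as TMM-scaled CPM on a log axis, with 1 point per library and exact 95% Poisson intervals as bars. The points of each gene lie close together, from Phf19 at 8.32 to 11.2 CPM up to Rbbp4 at 312 to 349 CPM.

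Counting error was small for most members. For 9 of 10 the interval of the ratio lay wholly within 1.5-fold of equality in both directions, as for 63.5% of tested genes, and for 6 it lay within 1.2-fold. The interval lay off 1 for 3 members, 2 higher (Ezh2 and Rbbp4) and 1 lower (Jarid2), against 12.6% and 11.2% of tested genes. Which genes fall on which side depends on the scaling: of all genes with an interval off 1, 53.0% were higher with TMM, 44.0% with DESeq2 size factors and 37.0% with the total count. With the total count the interval of Ezh2 reached 1 and that of Rbbp4 did not.

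The catalytic subunits differed widely in level and little between genotypes. Ezh2 (ENSMUSG00000029687, chromosome 6 at 47530139 to 47595341 in GRCm38), the main H3K27 methyltransferase of dividing cells, had 2151 counts in H2AZcKO and 2062 in H2AZfl/fl, or 247 and 229 CPM. The H2AZcKO was the higher library, by a ratio of 1.08 (1.02 to 1.15), and 59.5% of tested genes lay at least as far from equality. That share is not matched in level, since 5.38% of tested genes stood at or above the level of Ezh2 and genes with fewer counts scatter more. Ezh1 (ENSMUSG00000006920, chromosome 11 at 101191115 to 101226463), its paralog with weaker enzyme activity that is also used by non-dividing cells, had 157 counts and 189 counts, or 18.0 and 20.96 CPM. Here H2AZfl/fl was the higher library, and the ratio of 0.859 (0.691 to 1.07) spanned equality.

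Ezh2 was the dominant methyltransferase transcript in both libraries. Per kilobase of annotated exon it made up 93.9% of the pair in H2AZcKO and 92.4% in H2AZfl/fl. As a share of counts these were 93.2% (exact binomial interval 92.1 to 94.2) and 91.6% (90.4 to 92.7). The Ezh2 to Ezh1 ratio was 1.26 times as high in H2AZcKO, with an exact conditional interval of 1.002 to 1.58, so the pair's balance was barely separable from equal at this depth. Scaling of the libraries does not enter this comparison.

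EED and SUZ12 complete the enzyme's active core. Eed (ENSMUSG00000030619, chromosome 7 at 89954656 to 89980983) had 401 and 379 counts, or 46.0 CPM in H2AZcKO and 42.0 CPM in H2AZfl/fl. Its ratio was 1.09 (0.949 to 1.26), higher in H2AZcKO by less than counting error. Suz12 (ENSMUSG00000017548, chromosome 11 at 79993106 to 80034123) had 907 and 916 counts, or 104 and 102 CPM, with a ratio of 1.02 (0.933 to 1.12). That ratio fell on the other side of 1 with the total count, at 0.996, so no direction can be given for Suz12.

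The histone-binding pair behaved unequally, with Rbbp4 higher in H2AZcKO and Rbbp7 level. Rbbp4 (ENSMUSG00000057236, chromosome 4 at 129307100 to 129335370) had 3041 and 2810 counts, or 349 CPM in H2AZcKO and 312 CPM in H2AZfl/fl. Its ratio was 1.12 (1.06 to 1.18), and its interval stayed above 1 under each of the 5 other scalings or corrections tried, where the ratio ran from 1.09 to 1.12. A difference of this size was common, since 44.4% of tested genes lay at least as far from equality. Rbbp7 (ENSMUSG00000031353, chromosome X at 162760402 to 162779092) had 1335 and 1378 counts, or 153 CPM in each library, a ratio of 1.002 (0.929 to 1.08). The Rbbp4 to Rbbp7 ratio was 1.12 times as high in H2AZcKO (exact conditional interval 1.02 to 1.22).

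Rbbp7 is the only X-linked member, and the libraries differ in Xist and the Y-linked genes. The 508 tested genes of the X chromosome had a median log2 ratio of -0.00521, against 0.00608 for the autosomes. What part sex has in the level of Rbbp7 was not tested.

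The accessory subunits of the Polycomb-like family carry a Tudor domain that can bind methylated lysine 36 of histone H3 and a DNA-binding region for CpG-rich sequence. Mtf2 (ENSMUSG00000029267, chromosome 5 at 108065674 to 108109004) had 877 and 879 counts, or 101 CPM in H2AZcKO and 97.5 CPM in H2AZfl/fl, a ratio of 1.03 (0.939 to 1.13). Phf1 (ENSMUSG00000024193, chromosome 17 at 26933127 to 26937890) had 438 and 437 counts, or 50.3 and 48.5 CPM, a ratio of 1.04 (0.906 to 1.19). Both were level between the libraries within counting error.

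Phf19 showed the largest difference of the members and the widest error. The gene (ENSMUSG00000026873, chromosome 2 at 34893757 to 34914026) had 98 counts in H2AZcKO and 75 in H2AZfl/fl, or 11.2 and 8.32 CPM. The H2AZcKO was higher by a ratio of 1.35 (0.991 to 1.85), an interval that just reached equality, and 12.5% of tested genes lay at least as far from it. With the trend of the ratio on transcript length, GC content and level removed it was 1.40 (1.02 to 1.91), so whether the interval holds 1 turns on that choice. Within the Polycomb-like family Phf19 was 6.94% of counts (5.67 to 8.39) in H2AZcKO and 5.39% (4.26 to 6.71) in H2AZfl/fl. These ranges overlapped, which alone does not settle whether the shares differ.

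Mtf2 was the leading Polycomb-like transcript in both libraries, at 51.5% of the family in H2AZcKO and 52.4% in H2AZfl/fl per kilobase of annotated exon. Phf1 followed at 42.0% and 42.6%. The order of the 3 genes was the same in both genotypes.

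Jarid2 was the only member with an interval below 1. The gene (ENSMUSG00000038518, chromosome 13 at 44729474 to 44921643) encodes a Jumonji-family protein without demethylase activity that helps to bring PRC2 to chromatin. It had 672 counts in H2AZcKO and 774 in H2AZfl/fl, or 77.1 and 85.8 CPM, a ratio of 0.898 (0.809 to 0.997). With the trend on transcript length, GC content and level removed the ratio was 0.929 (0.837 to 1.03), and the interval then held 1. Its partner Aebp2, a zinc finger subunit outside the 10 members, had 451 and 515 counts, a ratio of 0.906 (0.797 to 1.03). Together Jarid2 and Aebp2 were 44.3% (42.3 to 46.2) of the counts of the 5 accessory genes Jarid2, Aebp2, Mtf2, Phf1 and Phf19 in H2AZcKO and 48.1% (46.2 to 50.01) in H2AZfl/fl. The ranges overlapped slightly, which does not settle whether the shares differ beyond counting error, and no interval of their difference was computed. The Mtf2 to Jarid2 ratio, which leaves out Aebp2, Phf1 and Phf19, was 1.15 times as high in H2AZcKO, with an interval of 0.997 to 1.32.

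**Figure D2:**
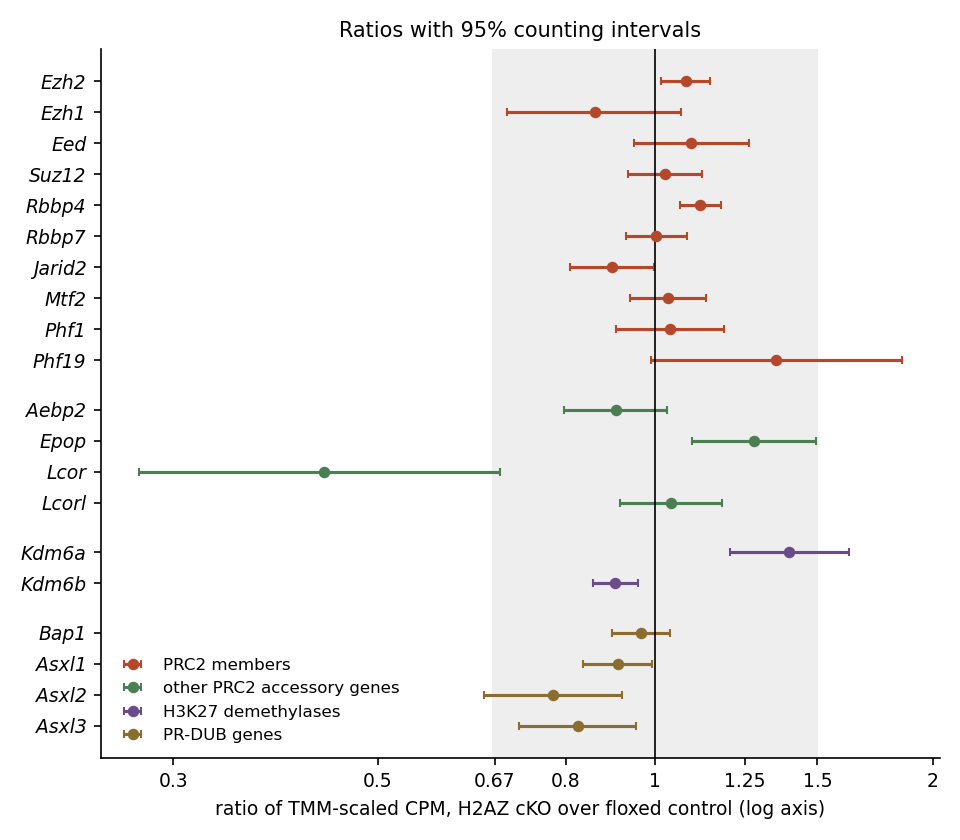
Ratio of TMM-scaled CPM, H2AZcKO over H2AZfl/fl, on a log axis with exact 95% binomial intervals, for the PRC2 genes and 3 groups of related genes; the grey band marks 1.5-fold. The 10 PRC2 ratios run from 0.859 to 1.35 inside the band, and Lcor at 0.437 lies outside it.

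Levels can be compared between genes only per length. Per kilobase of annotated exon the order was the same in both libraries: Rbbp7, Rbbp4, Ezh2, Suz12, Mtf2, Phf1, Eed, Jarid2, Ezh1 and Phf19. Rbbp7 stood at 52.7 CPM per kilobase in H2AZcKO and 52.5 in H2AZfl/fl, and Phf19 at 2.23 and 1.65. The intervals of the neighbours Rbbp4 and Ezh2 overlapped in both libraries, and those of Phf1 with Eed and of Ezh1 with Phf19 overlapped in H2AZcKO. The order depends on the length used. With the longest coding transcript Ezh2 led at 88.5 and 82.0 CPM per kilobase, ahead of Rbbp4 and Rbbp7, in both libraries. The intervals of Rbbp4 and Rbbp7 then overlapped in H2AZfl/fl. With that length Mtf2 also stood ahead of Suz12 and Eed ahead of Phf1 in both libraries, with overlapping intervals in each case. Ezh1 and Phf19 were the lowest with either length. Set against Suz12 per kilobase of exon, Ezh2 was at 1.76 in H2AZcKO and 1.67 in H2AZfl/fl, Eed at 0.571 and 0.534, and Jarid2 at 0.377 and 0.430.

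**Figure D3:**
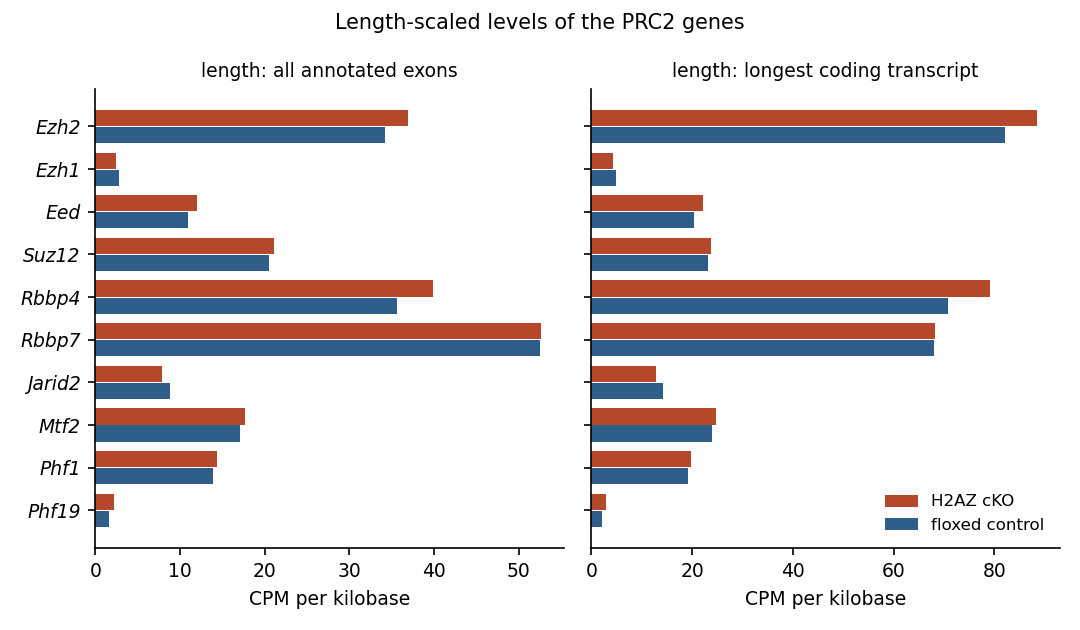
Levels of the PRC2 genes in CPM per kilobase, with the length of all annotated exons on the left and of the longest coding transcript on the right, as 1 bar per library. Ezh2, Rbbp4 and Rbbp7 lead in both panels, in a different order, and Ezh1 and Phf19 are lowest in both.

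Other PRC2 accessory genes held the largest single difference near the complex. Lcor, whose locus also encodes a PRC2 accessory protein, had 30 counts in H2AZcKO and 71 in H2AZfl/fl, or a ratio of 0.437 (0.275 to 0.679), lower in H2AZcKO. In the authors' deposited table none of the 10 members is marked significant, while Lcor is. Epop, which links PRC2 to elongin, was higher at 376 against 304 counts, a ratio of 1.28 (1.1 to 1.49). Lcorl, the paralog of Lcor, stood at 487 and 484 counts, a ratio of 1.04 (0.916 to 1.18), and overlaps Ncapg on the opposite strand over 944 exon bases. The list of 4, with Aebp2, had 1 gene past 1.5-fold, lower, and a median log2 ratio of -0.04.

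The enzymes that remove H3K27 methylation went in opposite directions. Kdm6a, an X-linked demethylase known to escape X inactivation, had 419 counts in H2AZcKO and 310 in H2AZfl/fl, a ratio of 1.40 (1.2 to 1.62). Its Y-linked homolog Uty had 2 and 190 counts, and the pair summed to 421 and 500, a ratio of 0.871 (0.763 to 0.994). Kdm6b, the autosomal demethylase, was lower at 2319 against 2650 counts, a ratio of 0.905 (0.856 to 0.958). Sex and genotype cannot be told apart for Kdm6a and Uty.

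Genes of Polycomb repressive complex 1 (PRC1), which ubiquitinates histone H2A, were level as a group. Of 24 tested genes 13 had a positive log2 ratio and 11 a negative one; the median was 0.01 and none past 1.5-fold. The direction of that median turned under other scalings, to -0.02 with DESeq2 size factors and -0.03 with the total count. The interval was above 1 for 1 of the 24, Yaf2 at 1.16 (1.02 to 1.32), and below 1 for 2, shares below those of all tested genes (12.6% and 11.2%). With the total count these numbers were 0 and 4, against 1297 above and 2207 below 1 among the 14707 genes tested in that setting. The genes farthest from equality were Phc3 at 0.747 (0.635 to 0.877) and Cbx7 at 1.32 (0.995 to 1.76), a chromodomain reader of H3K27 methylation, and Pcgf5 stood at 1.15 (0.806 to 1.64).

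The 4 genes of the deubiquitinase that opposes PRC1 (PR-DUB) had ratios below 1, as had 49.0% of all tested genes. The catalytic subunit Bap1 had a ratio of 0.965 (0.898 to 1.04), and its partners Asxl1, Asxl2 and Asxl3 had ratios of 0.911 (0.836 to 0.992), 0.775 (0.652 to 0.920) and 0.824 (0.712 to 0.952). The interval lay below 1 for 3 of 4, against 11.2% of tested genes, and that of Bap1 held 1. None was past 1.5-fold. With the trend on transcript length, GC content and level removed, the median log2 ratio of -0.20 became -0.11 and the interval lay below 1 for 0 of 4. Over all genes tested in that setting it lay below 1 for 1583 of 14543.

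Rbbp4 and Rbbp7 also serve complexes other than PRC2. Of 18 tested genes of the nucleosome remodelling and deacetylase complex, the chromatin assembly factor, the Sin3 complex, the nucleosome remodelling factor and the histone acetyltransferase Hat1, the interval lay above 1 for 5 and below 1 for 4, against 12.6% and 11.2% of all tested genes, and none was past 1.5-fold (1.92% and 3.03% of tested genes). With the trend removed 3 lay on each side, against 1217 above and 1583 below 1 among the 14543 genes tested in that setting. Hat1, the acetyltransferase of new histones, stood at 1.22 (1.1 to 1.35). Chaf1b, a subunit of the chromatin assembly factor at replication forks, stood at 1.19 (1.06 to 1.33). The deacetylase gene Hdac2 stood at 1.16 (1.12 to 1.21) and the deacetylase complex subunit gene Gatad2b at 0.816 (0.751 to 0.885). The median log2 ratio was 0.07.

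Most cell cycle genes had higher levels in H2AZcKO than in H2AZfl/fl. All 20 tested genes of the G1/S list had a positive log2 ratio (median 0.20, none past 1.5-fold), 13 of them with an interval above 1, against 51.0% and 12.6% of all tested genes. With the total count 19 were positive and 13 still had an interval above 1, against 43.6% and 1297 of 14707 tested genes. Ung, Slbp, Mcm7 and Mcm3 stood at 1.31 (1.12 to 1.53), 1.27 (1.15 to 1.41), 1.22 (1.16 to 1.29) and 1.22 (1.14 to 1.31). Of 18 genes of the G2/M list 15 had a positive log2 ratio, 3 a negative one and 9 an interval above 1 (median 0.13). With the total count 7 had an interval above 1 and 1 an interval below 1, and with the trend removed 6 and 0. Over all genes tested in these settings the interval lay above 1 for 1297 of 14707 and 1217 of 14543. Cdk1, Hmgb2, Birc5 and Cdc20 were at 1.32 (1.21 to 1.43), 1.251 (1.2 to 1.31), 1.23 (1.12 to 1.35) and 1.19 (1.1 to 1.29). These lists summed to 2673 against 2315 CPM and to 3462 against 3128 CPM, with no gene at 0 counts, and their part in the levels of Ezh2 and Rbbp4 was not tested.

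Progenitor and neuron markers were present in both libraries. Of the 8 progenitor genes 7 had a positive log2 ratio and 1 a negative one, against 51.0% and 49.0% of all tested genes. Their interval lay above 1 for 6 and below 1 for 0, against 12.6% and 11.2%. Of the 10 neuron genes 7 had a positive log2 ratio and 3 a negative one, with the interval above 1 for 3 and below 1 for 3. The 8 progenitor genes had a median log2 ratio of 0.13 and summed to 2744 CPM in H2AZcKO and 2497 CPM in H2AZfl/fl, with Hes5 at 1.62 (1.37 to 1.91), Hes1 at 1.34 (1.16 to 1.54), Vim at 1.12 (1.09 to 1.15) and Nes at 1.1 (1.06 to 1.15). The 10 neuron genes had a median of 0.03, which was -0.01 with the total count, and summed to 6973 and 6807 CPM, with Gap43 at 1.14 (1.08 to 1.19), Neurod6 at 1.1 (1.06 to 1.15), Elavl4 at 0.926 (0.864 to 0.991) and Map2 at 0.905 (0.875 to 0.935). With the trend on transcript length, GC content and level removed, the median was 0.02 for the progenitor genes and -0.05 for the neuron genes. Over all tested genes it was then -0.01. In that setting the interval lay above 1 for 3 progenitor genes and 0 neuron genes, and below 1 for 1 and 5. Over all genes it lay above 1 for 1217 and below 1 for 1583 of 14543. The part of these markers' cells in the PRC2 levels was not tested.

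**Figure D4:**
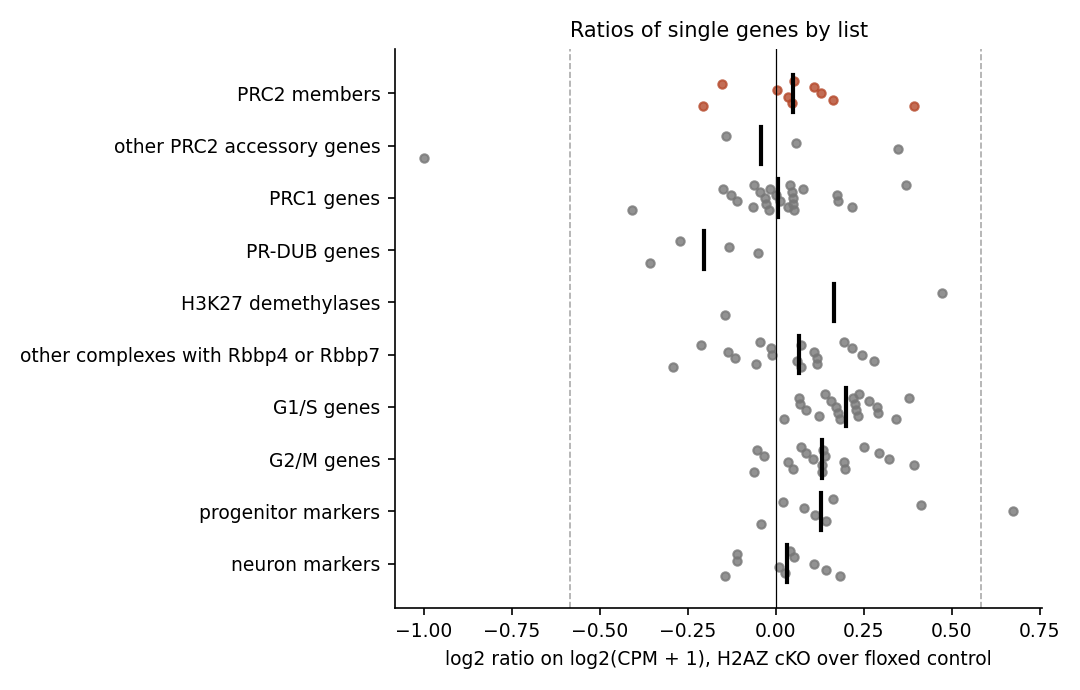
Log2 ratio on log2(CPM + 1), H2AZcKO over H2AZfl/fl, with 1 point per tested gene in 10 lists, black bars at list medians and dashed lines at 1.5-fold. The PRC2 genes have a median of 0.05, against 0.20 for the G1/S list and -0.20 for the PR-DUB list.

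Of the genes that Polycomb is known to keep silent outside their own tissue, those analysed were near the limit of detection in both libraries. Of 65 listed genes 11 were analysed and 3 of these reached 1 CPM, while the other 54, the Hox genes included, are not analysed here. Sox17 had 26 counts in H2AZcKO and 42 in H2AZfl/fl, a ratio of 0.640 (0.377 to 1.07). Gata2 had 9 and 10 counts (0.931, 0.335 to 2.55), and the mesoderm gene T had 9 and 3 counts (3.10, 0.775 to 17.8). Summed over the 11 genes, the level was 7.46 CPM in H2AZcKO and 8.54 CPM in H2AZfl/fl. A difference between the genotypes was not detectable at this depth for any of the 3.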

How the data were processed

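RNA was sequenced from telencephalic tissue of 1 H2AZcKO and 1 H2AZfl/fl sample, with Illumina TruSeq libraries from 2 ug of total RNA, per the labels' protocols. Bowtie2 2.2.3, TopHat2 2.0.12, HTSeq 0.6.0 and the build mm9 are named in the submitters' processing notes, with no role or order; gene positions in the table instead match GRCm38, 78.7% of genes having the same span in GENCODE M21. The deposited counts are whole numbers for 19202 Ensembl genes, summing to 8839840 and 8891198. The deposited CPM are those counts times a constant per library, with a count of 0 written as 0.5 read. The authors' fold is the ratio of these CPM, and the authors' log2 fold change its log2. The authors' p-values come from a test not given in the sources used here; only the table's own mark of significance is quoted. Its columns headed H2AfZKO and WT were taken as H2AZcKO and H2AZfl/fl, since each genotype has 1 sample.

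Symbols were matched by identifier for 19112 genes. Libraries were scaled by TMM (edgeR 4.0.16, R 4.3.3; factors 0.986 and 1.01). Log2 ratios use log2(CPM + 1), for the 14586 genes at 1 CPM or more in the higher library. Intervals are exact at 95%. Exon lengths, overlaps and transcripts came from GENCODE M21 and promoters from RefSeq GRCm38.p6. Intervals used scipy 1.17.1, alignments biopython 1.88, tables pandas 2.3.3 and numpy 2.4.6, and plots matplotlib 3.10.9, in Python 3.11.15. The steps were tested on simulated data. The members and lists were chosen with earlier results of these data known. Named are all members, all genes of lists of up to 5, up to 4 genes farthest from 0 in longer lists, and H2afz; markers of region, blood and microglia are given as sums, with those at 0. Alternatives were DESeq2 1.42.0 size factors, total count, TMM without the X and Y chromosomes, the deposited CPM, pseudocounts of 0.1 and 5, no floor and a floor of 5 CPM, sizes of 1.2-fold and 2-fold, and removal of a joint quadratic trend on length, GC content and level, with lengths from the longest coding transcript chosen after seeing the data.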

Additional observations from a re-analysis of the deposited data

How the results depend on the processing

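The ratio of every member stayed inside its main counting interval under all 5 other scalings or corrections, 50 values in all. Each other scaling only multiplies all ratios by a single constant, from 1.006 to 1.034 against 1.035 with TMM, so those values could hardly fall outside. The constants of the total count and the deposited CPM were nearly the same (1.00581 and 1.00585). Only the trend removal shifts each gene separately. None of the 10 members passed 1.5-fold, in either direction, under any scaling, pseudocount or floor tried; at 1.2-fold 1 was higher. The median log2 ratio of the members ran from 0.01 (total count) to 0.05. Members above 1 numbered 8 with TMM, 7 with DESeq2 size factors, and 6 each with the total count, the deposited CPM and the trend removed. Of all tested genes, 51.0%, 46.5%, 43.6%, 43.6% and 48.6% were above 1 in these settings, in that order. Members with an interval above 1 numbered 2 with TMM and 1 each with DESeq2 size factors, the total count and the deposited CPM, where Ezh2 dropped out. Removing the trend left 2, Rbbp4 and Phf19, and 0 below 1 in place of 1, Jarid2. Over all tested genes the interval lay above 1 for 1836 of 14586 with TMM and 1524 of 14707 with DESeq2 size factors. It did so for 1297 of 14707 with the total count and 1217 of 14543 with the trend removed. The other scalings of the interval, above-1 and list counts and of the summed ratio were chosen after seeing the data, as was the transcript length.

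Shares depend on the length used. For Ezh2 within its pair the share was 95.4% in H2AZcKO and 94.3% in H2AZfl/fl with the longest coding transcript. For Rbbp7 it was 56.9% and 59.6% per kilobase of exon, 46.3% and 49.1% with that transcript, and 30.5% and 32.9% of plain counts. Without length Mtf2 was 62.1% and 63.2% of its family and Phf1 31.0% and 31.4%. Jarid2 with Aebp2 was 27.8% and 30.9% of the 5 accessory genes per kilobase of exon, 31.2% and 34.5% with that transcript, and 44.3% and 48.1% of counts. In each of these shares the genotype on the higher side was the same with every length. For Ezh2 and Rbbp7, each a share of a pair, it could not differ, because the same lengths enter both libraries. No paired analysis was possible because there is 1 sample per genotype, and for the same reason no sample could be left out. The Polycomb target list had no gene left at a floor of 5 CPM. Depth limits Phf19 and Ezh1 most, and no interval covers differences between embryos.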
